A study of Mus musculus with 23 samples.

Results

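Lewis lung carcinoma (LLC) is a transplantable mouse lung tumour line, and its subclones were derived by limiting dilution, so that each grew out of very few cells of the parental culture. The comparison described here set subclones 2, 3, 6 and 28, the first block of names in the deposit, against subclones 18, 19, 23 and 24, the block that followed. It took in all 23 arrays and all 8 subclones of the series: 11 arrays of the first set (2 of subclone 6 and 3 of each other subclone) and 12 of the second (3 of each). All the cells were kept in DMEM with 10% serum and antibiotics and were held in a serum-free expression medium for 24 h before total RNA was taken. The labels name no transgene and no agent for any subclone. The labels give no property by which the sets differ, no parental sample and no batch, and no biological activity of any subclone is given in the sources used here. The split is therefore a description of named subclones, and the order of deposit, any batch that followed it and the identity of the subclones cannot be told apart. Each subclone was 1 clone, so its arrays share one origin and the subclone was the unit: 4 against 4.

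The deposited table held 1 linear intensity for each of 45101 probe sets on each array. Levels below are log2(intensity + 16), averaged over the arrays of a subclone, for 18193 genes. A difference is the mean of the first set minus the mean of the second, with its standard error (SE) from limma, and a fold is that difference on the same scale, which understates the change of dim genes. A gene passed at a Benjamini-Hochberg adjusted p under 0.05 over all genes. Separately, a gene is said not to overlap where every subclone mean of one set lay beyond every one of the other. Array medians lay between 40.83 and 45.74, and the median difference of all genes was 0.013 (log2). The 5th percentile of an array was lower in subclones 19, 23 and 24 (2.317, 2.203 and 2.327 on average) than in the others (2.547 to 2.73), with subclone 18 at 2.68. Spiked-in poly-A controls were also lowest in subclones 19, 23 and 24, at 8.196, 8.054 and 8.008 (mean log2) against 8.326 to 8.382 elsewhere. An exact permutation test over the 8 subclones gave a two-sided p of 0.114 and 0.0571 for the sets (both 0.412 when adjusted over 9 technical measures), where the smallest possible unadjusted p was 0.0286, so this design could hardly show such a difference. Their part in the results was not tested.

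Interleukin 11, leukemia inhibitory factor (LIF) and adrenomedullin are secreted signals of tumour cells. The first 2, encoded by Il11 and Lif, act through receptors that share the gp130 chain and the kinases and STAT3 behind it, and LIF has been studied as a mediator of fat and muscle loss. Adrenomedullin, encoded by Adm, is a vasodilator peptide that is induced by low oxygen and signals through the receptor encoded by Calcrl. In many tumour cells the AP-1 factors, dimers of Fos and Jun proteins at the end of the ERK pathway, drive secreted proteases, in particular the matrix metalloproteinases (MMPs), which cleave collagen, elastin and other matrix proteins.

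Genes higher in subclones 2, 3, 6 and 28 included secreted proteases of one gene cluster, a transcription factor gene (Tfap2c), Tmem45a, interleukin 11 and urokinase. Of 18193 genes, 101 passed as higher in the first set (0.555% of those tested) and 124 as lower (0.682%), and none of these 225 overlapped between the sets. Sizes were uneven between the directions. Of the genes that were higher, 33 differed by at least 1 log2 unit and 5 by at least 2, namely Mmp12, Mmp13, Tmem45a, Tfap2c and Il11. Of the genes that were lower, 6 reached 1 log2 unit and 0 reached 2. The median difference was 0.751 among the former and -0.56 among the latter. A gap of at least 1 log2 unit between the nearest subclones of the sets was seen in 8 genes higher in the first set and in 0 lower. The lowest adjusted p was 0.0283, shared by 5 genes.

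**Figure D1:**
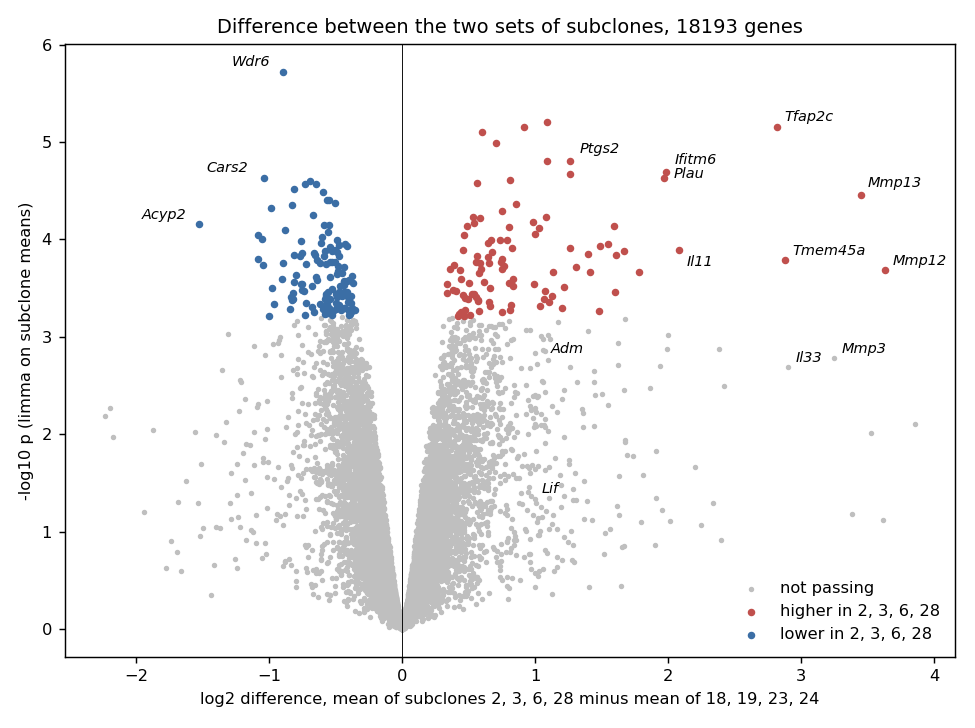
Each point is 1 of 18193 genes, with the log2 difference between the mean of subclones 2, 3, 6 and 28 and the mean of 18, 19, 23 and 24 on the x axis and -log10 of the unadjusted limma p on the y axis. Coloured points passed at an adjusted p under 0.05 (101 red, 124 blue). The red points reach 3.63, whereas the blue ones end at -1.52, and Mmp3, Il33, Adm and Lif lie among the grey points.

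These counts rest on few subclones. Leaving out subclone 2, 3 or 28 left 0 genes past the threshold (2888, 2716 and 3137 had an unadjusted limma p under 0.05, against 3347 with all 8), and leaving out 6, 18, 19 or 23 left 2, 2, 8 and 2. Leaving out subclone 24 gave 365. With a pseudocount of 1 only Hcar2, the receptor of niacin and hydroxybutyrate, passed; with the 23 arrays in 1 model and the subclone as a random block, 2489 genes passed. With no correction, the sets did not overlap in 968 genes (5.32%) in the direction of the first set and in 1113 (6.12%) in the other, and these shares are the background for the gene lists below.

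The promoters of 5 secreted genes are shown here because each holds an AP-1 site, the motif TGANTCA (searched on both strands, with N any base), within 150 bases before a RefSeq start. The same window holds no match in Il33, Lif, Adm, Ptgs2, Tmem45a, Ifitm6, Guca1a, Slc7a11 and Maff. The promoters of Plau, Tfap2c and Bhlhe40, which also passed as higher, were not examined. The window holds a match in Irgm1, which passed as lower in the first set. Among named genes that did not overlap and did not pass, it also holds a match in Gbp2, Slc7a1 (at a single start) and Itgax, which were lower. Ccl9 and Srxn1, which were higher without passing, have matches there as well. The sequences are RefSeq's for GRCm38.p6, each giving the 150 bases before the start, 5′ to 3′ on the gene's own strand, with the AP-1 match in capitals. For Il11 and Mmp12 RefSeq gives a further start, whose 150 bases hold no match.
Mmp13, chr9:7272364-7272513, plus strand: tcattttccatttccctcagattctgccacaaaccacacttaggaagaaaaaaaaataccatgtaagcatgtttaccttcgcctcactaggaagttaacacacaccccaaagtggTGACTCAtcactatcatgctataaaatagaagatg
Mmp12, chr9:7347224-7347373, plus strand: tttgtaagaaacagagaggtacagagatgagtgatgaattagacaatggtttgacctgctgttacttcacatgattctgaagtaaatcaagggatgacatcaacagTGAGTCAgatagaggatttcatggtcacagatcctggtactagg
Mmp3, chr9:7445672-7445821, plus strand: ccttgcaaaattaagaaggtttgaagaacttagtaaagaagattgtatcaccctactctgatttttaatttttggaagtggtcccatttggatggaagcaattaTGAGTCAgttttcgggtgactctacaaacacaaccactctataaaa
Mmp10, chr9:7502192-7502341, plus strand: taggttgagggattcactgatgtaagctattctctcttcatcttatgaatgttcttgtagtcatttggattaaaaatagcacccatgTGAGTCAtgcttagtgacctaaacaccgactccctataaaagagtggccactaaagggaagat
Il11, chr7:4778142-4778291, minus strand: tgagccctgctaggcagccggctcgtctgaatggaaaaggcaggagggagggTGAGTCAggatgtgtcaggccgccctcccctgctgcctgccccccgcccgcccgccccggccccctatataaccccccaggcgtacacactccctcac

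The match began 35 bases before the start in Mmp13, 44 in Mmp12, 46 in Mmp3, 63 in Mmp10 and 98 in Il11. Over the 250 bases before the start, 968 of 14452 genes with a promoter in the table and a measured value held the motif (6.7%). It was found in 15 of the 80 genes that passed as higher in the first set and have a promoter there (18.8%), and in 5 of 106 that passed as lower (4.72%). The 15 include Mmp1a and Mmp1b beside Mmp10, Mmp12, Mmp13 and Il11, and these neighbouring MMP genes are related copies, so they are not independent cases. A TATA box, searched as TATAAA on both strands, was in 10.5% of all these promoters, 16.2% of the higher genes and 2.83% of the lower ones. The PEA3 motif of ETS factors, AGGAAG, was in 32.3%, 35% and 27.4%, and the core ACGTG of the hypoxia response element in 22.5%, 26.2% and 22.6%. These shares are descriptions without a test, and a match is not a bound site.

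Among the ligands, Il11 was higher in every subclone of the first set. Its levels were 9.27, 9.36, 8.64 and 9.59 in subclones 2, 3, 6 and 28 and 6.50, 6.76, 7.95 and 7.32 in 18, 19, 23 and 24. No subclone overlapped, and the gap between subclones 6 and 23 was 0.70. The set means were 9.21 ± 0.403 and 7.13 ± 0.643 (SD, n = 4 subclones each), a difference of 2.08 ± 0.32 (SE, limma, adjusted p = 0.0338) or 4.23-fold. In RNA of whole cultures, fewer cells with a transcript and less of it per cell cannot be told apart. Over single arrays the lowest of the first set was 8.64 and the highest of the second 8.01.

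Lif did not separate the sets. It stood at 8.39, 8.37, 8.62 and 9.77 in subclones 2, 3, 6 and 28 and at 7.99, 8.57, 7.88 and 6.72 in 18, 19, 23 and 24. Subclone 19 lay within the range of the first set, whose mean was raised by subclone 28, and subclone 24 lay below all others. The difference of 1.00 ± 0.428 did not pass (limma, adjusted p = 0.26), and its 95% interval ran from 0.02 to 1.97. The 2 probe sets of the gene gave differences of 0.33 and 1.00.

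Adm did not overlap but did not pass. Its levels were 11.34, 11.18, 11.5 and 11.68 in the first set and 10.58, 10.63, 10.58 and 9.67 in the second, with subclone 24 far below its 3 neighbours. The difference was 1.06 ± 0.22 (limma, adjusted p = 0.057), and the nearest subclones, 3 and 19, lay 0.54 apart. Leaving out subclone 24 brought the difference to 0.83 and the adjusted p to 0.0305. The receptor gene Calcrl stood at 10.35, 10.20, 9.94 and 10.32 against 8.23, 7.97, 9.43 and 9.75, a difference of 1.36 ± 0.377 (limma, adjusted p = 0.109). The 3 probe sets of Calcrl gave differences from -0.03 to 1.36.

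**Figure D2:**
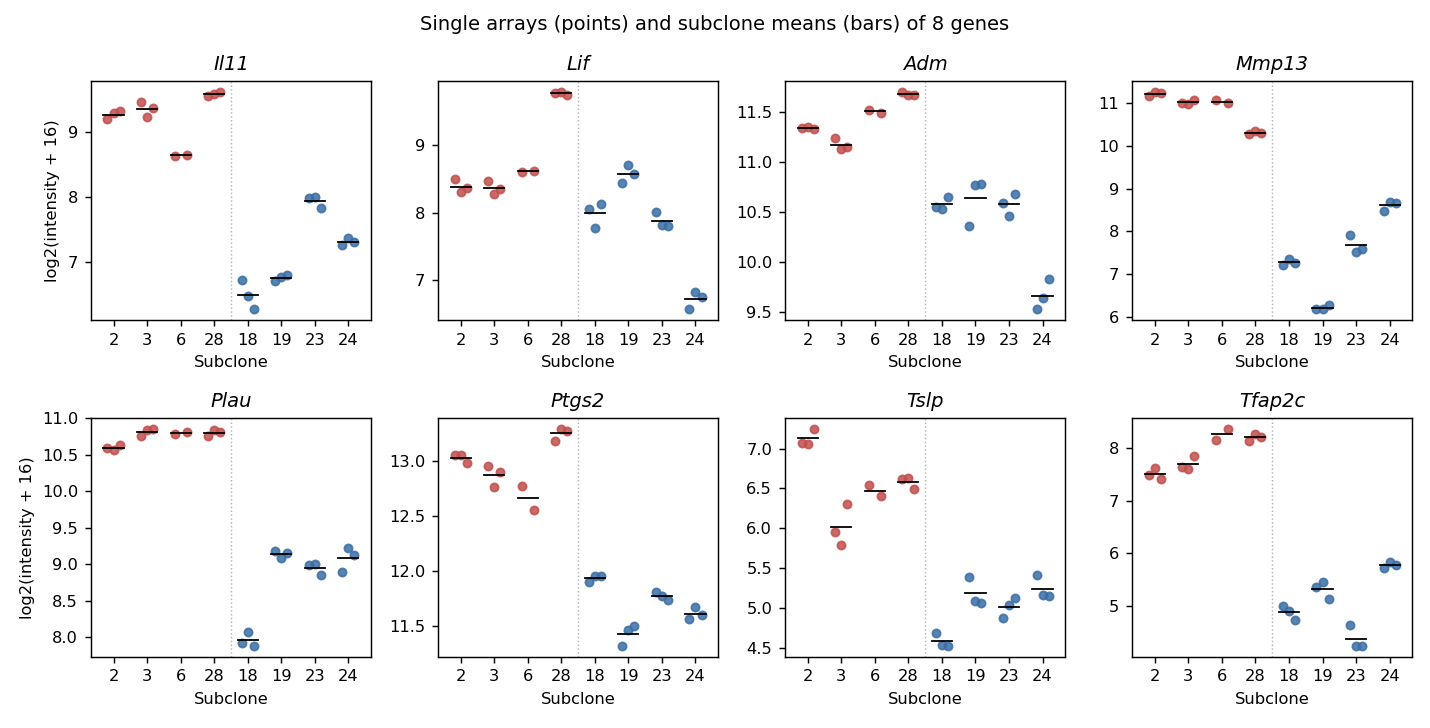
Levels of 8 genes on the y axis as log2(intensity + 16), by subclone on the x axis; points are single arrays, bars are subclone means, red marks subclones 2, 3, 6 and 28 and blue marks 18, 19, 23 and 24. All genes but Lif show a gap between the colours. Lif of subclone 19 (8.57) lies among the red points, and Adm is lowest in subclone 24 (9.67).

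The other gp130 ligands differed less. Of the 6 that were measured, only Il11 passed (against 0.555% of all genes) and only Il11 did not overlap (16.7%, against 5.32%). Il6 was near the floor in most subclones (4.65 to 6.28), and Clcf1 had a difference of -0.20 ± 0.18. On the receiving side, 0 of 14 receptors and signalling genes passed and 0 separated the sets, with a median difference of -0.062. Il6st, which encodes gp130 itself, had a difference of -0.01 ± 0.231 and Stat3 one of 0.03 ± 0.111 (adjusted p = 0.987 and 0.916). Socs3, a feedback inhibitor that STAT3 induces, had -0.28 ± 0.168. Lifr, the LIF receptor chain, was at 8.57 in subclone 18 and 6.0 in 19, and between 4.18 and 4.79 in the other 6.

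The proteases held the largest differences. Of 42 measured proteases and inhibitors, 5 passed as higher (against 0.555% of all genes) and 0 as lower. The sets did not overlap in 9, all higher in the first set (21.4%, against 5.32% of all genes), and the median difference was 0.15. Mmp13, a collagenase, stood at 11.22, 11.02, 11.03 and 10.30 in the first set and at 7.28, 6.22, 7.67 and 8.60 in the second. Every first-set subclone lay at least 1.70 above every other, and the difference was 3.45 ± 0.445 or 10.9-fold (limma, adjusted p = 0.0315). Mmp12, an elastase best known from macrophages, varied more within the first set, at 10.47, 7.39, 8.97 and 8.06. It was near the floor in subclones 18 and 19 (4.76 and 4.59) and at 5.71 and 5.29 in 23 and 24, for a difference of 3.63 ± 0.596 (limma, adjusted p = 0.0352).

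Mmp3, a stromelysin, did not overlap but did not pass. It stood at 13.31, 12.68, 12.50 and 13.10 in the first set, and at 9.88, 7.28, 11.30 and 10.15 in the second, where the SD was 1.70. The sets lay 1.19 apart at their nearest subclones, and the difference was 3.25 ± 0.724 (limma, adjusted p = 0.0679). The other stromelysin, Mmp10, passed with 7.59, 7.97, 7.69 and 8.05 against 6.52, 5.67, 6.76 and 5.68, a difference of 1.67 ± 0.257. Mmp1a and Mmp1b, the mouse relatives of interstitial collagenase, passed with 1.26 ± 0.153 and 0.66 ± 0.105 from levels close to the floor (second-set means of 4.5 and 4.54).

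In the RefSeq gene order these 6 genes follow one another on chromosome 9 as Mmp13, Mmp12, Mmp1b, Mmp3, Mmp1a and Mmp10. Mmp8, Mmp20 and Mmp7, next in order after Mmp10, had differences of 0.15, -0.04 and 0.11 with set means of 4.66 to 5.24, near the floor; Mmp27, between Mmp8 and Mmp20, had no value here. The genes of other families next to the cluster, Dcun1d5 on one side and Tmem123 on the other, were measured well above the floor and differed by 0.36 and 0.19 (adjusted p = 0.137 and 0.329). Farther out, Casp12 (-1.21) and Birc3 (0.88) had larger differences, overlapped between the sets and did not pass (adjusted p = 0.355 and 0.628). Mmp genes outside this run, such as Mmp2 (0.02), Mmp14 (0.11) and Mmp11 (-0.10), did not pass.

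Urokinase, the plasminogen activator encoded by Plau, was even in the first set at 10.60, 10.82, 10.80 and 10.80. It stood at 7.96, 9.14, 8.94 and 9.08 in the second, so that subclone 18 was lowest and the gap was 1.45. The difference was 1.97 ± 0.242 or 3.92-fold (limma, adjusted p = 0.0292). Its receptor gene Plaur had a difference of 0.53 ± 0.141 (adjusted p = 0.0968), and Timp1, an inhibitor of MMPs, one of 0.55 ± 0.125 (0.0694); neither overlapped and neither passed. Ctsh, a lysosomal cathepsin, stood at 8.24 to 8.45 in the first set and at 4.85, 7.06, 6.44 and 7.13 in the second (difference 1.94 ± 0.445, adjusted p = 0.0715).

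**Figure D3:**
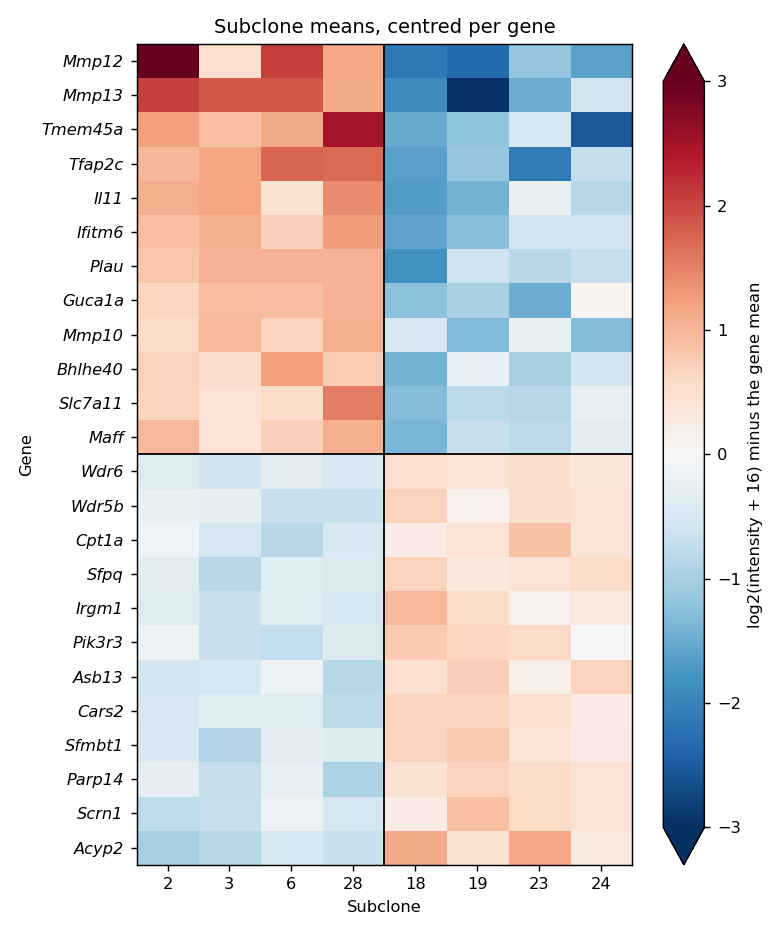
Subclone means of the 12 genes with the largest differences in each direction among those that passed, in rows, with subclones in columns; colour gives log2(intensity + 16) minus the mean of the gene over the 8 subclones. The upper rows reach about 3 units from the gene's mean in Mmp12 and Mmp13, the lower rows stay paler, and subclone 24 is nearest to the middle for Guca1a (8.38).

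Other genes with large differences belong to no single group. Tfap2c, which encodes the transcription factor AP-2 gamma, stood at 7.50, 7.69, 8.25 and 8.19 against 4.88, 5.33, 4.38 and 5.78, with the widest gap of the 225 genes that passed (1.73). Its difference was 2.82 ± 0.296 or 7.05-fold (limma, adjusted p = 0.0283), and its 3 probe sets had the same sign, from 0.50 to 2.82. Tmem45a, a transmembrane protein gene, stood at 8.81, 8.47, 8.71 and 10.07 against 6.06, 6.36, 7.05 and 5.05 (2.88 ± 0.458). Ifitm6, of the interferon-induced transmembrane family, differed by 1.98 ± 0.239, and Guca1a, an activator of guanylate cyclase known from photoreceptors, by 1.79 ± 0.294. Bhlhe40, a transcriptional repressor of the clock and of hypoxia responses, differed by 1.61 ± 0.251.

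Few cytokines and chemokines passed, though a larger share than among all genes did not overlap as higher in the first set. Of 44 measured, 1 passed as higher (Tslp, against 0.555% of all genes) and 0 as lower, and the median was 0.056. In every subclone 13 of the 44 were below 5.5. The sets did not overlap in 7 as higher (15.9%, against 5.32% of all genes) and in 1 as lower (2.27%, against 6.12%). Tslp encodes an epithelial cytokine that acts on dendritic cells. It stood at 7.13, 6.01, 6.47 and 6.58 in the first set and at 4.58, 5.18, 5.01 and 5.24 in the second (1.55 ± 0.233, limma, adjusted p = 0.0338). Il33, an alarmin held in the nucleus, had a larger difference, 2.90 ± 0.67, that did not pass (adjusted p = 0.0715). It was highest in subclone 28 (12.62) and spread from 9.99 in the first set, while subclone 23 at 9.74 stood far above 18, 19 and 24 (7.50, 7.56 and 7.61). Ccl2, a monocyte attractant, was high throughout, with 12.79 to 12.92 and 12.24 to 12.78 in the sets.

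Secreted factors with reported effects on fat tissue or in cachexia were led by the genes already named. Of 40 measured, 3 passed as higher (Il11, Ptgs2 and Tnfsf11, against 0.555% of all genes) and 0 as lower. In every subclone 16 of the 40 were below 5.5. The sets did not overlap in 8, all higher in the first set (20%, against 5.32% of all genes), and the median was 0.098. Tnfsf11, which encodes the osteoclast factor RANKL, was close to the floor in the second set (4.22 to 4.66) and at 5.21 to 5.78 in the first (1.03 ± 0.148). Inhba, the activin A subunit, had 6.45, 6.74, 6.72 and 6.68 against 5.38, 5.55, 5.86 and 6.44 (0.84 ± 0.208, limma, adjusted p = 0.0845). The 2 probe sets of Inhba gave differences of -0.03 and 0.84. Angptl4, which encodes an inhibitor of lipoprotein lipase, went the other way without passing: 9.34, 7.59, 7.48 and 7.66 against 11.05, 10.38, 10.83 and 8.58, with subclone 2 above subclone 24 (-2.19 ± 0.596, adjusted p = 0.103). Grem1, an antagonist of BMP ligands, did not overlap, with 10.51 to 11.08 against 8.17 to 9.83 (1.62 ± 0.342, adjusted p = 0.0585).

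Successive steps of prostaglandin E2 synthesis lay on the same side. Ptgs2, the inducible cyclooxygenase, stood at 13.03, 12.87, 12.66 and 13.25 against 11.93, 11.43, 11.77 and 11.61, and passed with 1.26 ± 0.147 (limma, adjusted p = 0.0292). Pla2g4a, the phospholipase that frees arachidonic acid, had 0.71 ± 0.147 (adjusted p = 0.0562), and Ptges, the terminal synthase, 0.65 ± 0.154 (0.0738). Neither overlapped and neither passed. The 3 probe sets of Ptges gave differences from 0.33 to 0.65. Of 14 measured genes of the pathway, 1 passed as higher (against 0.555% of all genes). The sets did not overlap in 3, all higher in the first set (21.4%, against 5.32% of all genes). In every subclone 5 of the 14, most of them receptors, were below 5.5.

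Genes listed as output of ERK and AP-1 leaned towards the first set with few calls. The activity of ERK and AP-1 themselves was not measured, and their part in these differences was not tested. Of 31 measured genes, 1 passed as higher (Maff, against 0.555% of all genes) and 0 as lower. The sets did not overlap in 6, all higher in the first set (19.4%, against 5.32% of all genes), and the median difference was 0.40. Leaving out subclone 19 brought that median to 0.24. Maff, a small Maf protein that pairs with other leucine zipper factors, stood at 9.86, 9.30, 9.60 and 9.98 against 7.51, 8.20, 8.08 and 8.57 (1.60 ± 0.227, limma, adjusted p = 0.0338). The AP-1 subunit genes differed among themselves. Jun had 11.03, 11.27, 11.33 and 11.86 against 10.52, 10.80, 10.69 and 10.72 (0.69 ± 0.163, adjusted p = 0.0754), and Fosl1, a Fos relative, 0.64 ± 0.188 (0.122). Junb, Fos and Fosl2 had 0.01, -0.10 and -0.10. Etv4, an ETS factor, and Dusp6, a phosphatase that acts on ERK, had 0.73 ± 0.144 and 0.48 ± 0.108 (adjusted p = 0.054 and 0.0694). Hbegf and Ereg, ligands of the EGF receptor, had 0.87 ± 0.297 and 1.01 ± 0.295 and overlapped.

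Hypoxia and glycolysis genes showed the most even lean of the lists. Of 36 measured, 0 passed, 34 had a positive difference (9658 of 18193 among all genes), and 13 did not overlap, all higher in the first set (36.1%, against 5.32% of all genes); the median was 0.43. Ero1a, an oxidase of the endoplasmic reticulum, stood at 12.84, 12.42, 12.84 and 13.19 against 10.76, 12.34, 11.77 and 11.16 (1.31 ± 0.32, adjusted p = 0.0819). P4ha2, a collagen prolyl hydroxylase, had 1.01 ± 0.262 (0.093), and Pdk1, which limits the entry of pyruvate into mitochondria, 0.59 ± 0.117 (0.054). Subclone 18 was lowest in the mean over the list (9.66), and subclone 19, at 10.37, lay above subclone 3 of the first set (10.29). Without subclone 18 the median was 0.31. Car9, a much used hypoxia marker, went its own way with 9.07 in subclone 19 and 5.11 to 6.26 elsewhere. Hilpda, a lipid droplet protein induced by hypoxia, is not on the list and was picked out after its value was seen; it passed with 0.81 ± 0.115 (adjusted p = 0.0338).

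Targets of NRF2, the regulator of antioxidant genes, had 1 gene of 26 that passed as higher (against 0.555% of all genes), and the median was 0.16. The sets did not overlap in 7, all higher in the first set (26.9%, against 5.32% of all genes). Slc7a11, the cystine importer, stood at 9.39, 9.15, 9.29 and 10.27 against 7.43, 7.91, 7.87 and 8.49 (1.60 ± 0.282, limma, adjusted p = 0.0415). Nqo1, a quinone reductase, and Srxn1, sulfiredoxin, had 0.73 ± 0.184 and 0.75 ± 0.148 without passing (0.089 and 0.0538). Gclc and Txnrd1, classical targets as well, had 0.15 and -0.04 and overlapped.

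**Figure D4:**
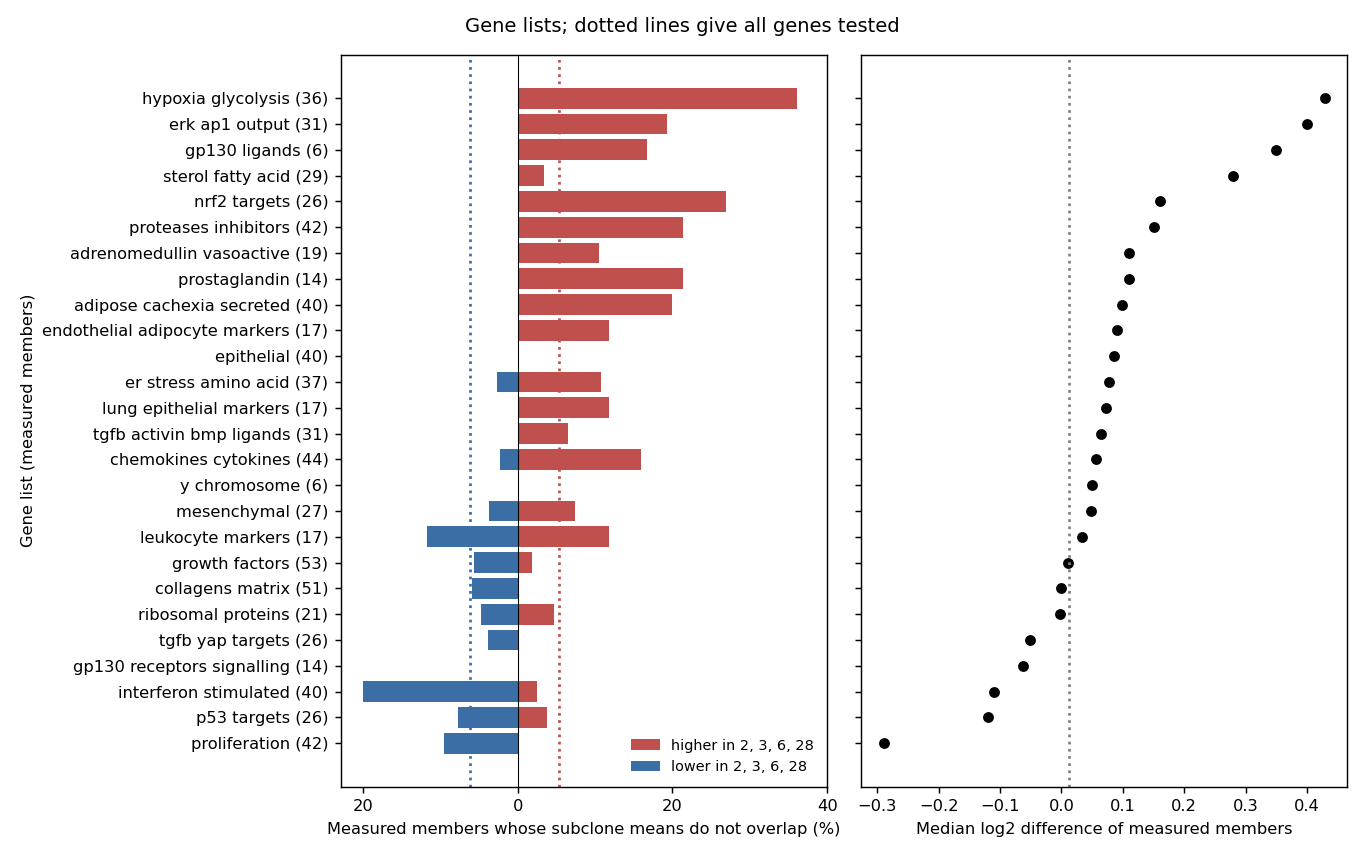
The left panel gives, for 26 gene lists in rows (measured members in brackets), the percent of measured members whose subclone means do not overlap, to the right (red) where subclones 2, 3, 6 and 28 were higher and to the left (blue) where they were lower; the right panel gives the median log2 difference of the list. Dotted lines give all 18193 genes (5.32% and 6.12%, median 0.013). Hypoxia (36.1%) and NRF2 targets (26.9%) reach farthest right, interferon genes (8 of 40) farthest left, and proliferation has the lowest median (-0.29).

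Interferon-stimulated genes were the list with calls in the other direction. Of 40 measured, 3 passed as lower in the first set (Parp14, Irf1 and Irf9, against 0.682% of all genes) and 0 as higher. The sets did not overlap in 8 as lower (20%, against 6.12% of all genes) and in 1 as higher (2.5%, against 5.32%). The median was -0.11. Parp14, an ADP-ribosyltransferase, stood at 6.71, 6.28, 6.74 and 6.04 against 7.45, 7.68, 7.56 and 7.43 (-1.08 ± 0.159, limma, adjusted p = 0.0338). The 2 probe sets of Parp14 gave differences of -1.08 and -0.16. Irf1, a transcription factor of interferon responses, had 9.64, 8.97, 9.67 and 9.30 against 10.17, 10.30, 10.08 and 10.40 (-0.84 ± 0.158). Irf9, part of the factor that type I interferon activates, had -0.35 ± 0.0663. Gbp2 and Gbp7, guanylate binding proteins, were highest in subclone 19 (8.77 and 8.56) and did not pass (-1.32 ± 0.383 and -1.40 ± 0.428). The antiviral genes Ifit1, Mx1 and Oas1a had -0.15, 0.10 and 0.04. Ifnar2 and Ifngr2, receptor chains for interferons that were picked out after their values were seen, passed as higher in the first set with 0.75 ± 0.123 and 0.77 ± 0.125. The partner chains Ifnar1 and Ifngr1 had 0.35 ± 0.106 and 0.29 ± 0.232 and did not pass (adjusted p = 0.128 and 0.564).

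The genes lower in the first set showed smaller but even differences. Wdr6, a WD-repeat protein gene, had the lowest unadjusted p in the table, with 10.73, 10.52, 10.79 and 10.63 against 11.60, 11.52, 11.65 and 11.49 (-0.90 ± 0.0805, limma, adjusted p = 0.0283). Acyp2, an acylphosphatase, had the largest difference, with 6.72, 6.85, 7.19 and 7.03 against 8.85, 8.17, 8.87 and 7.99 (-1.52 ± 0.216). Sfpq, a splicing and paraspeckle protein, had set means of 10.79 and 11.77 (-0.98 ± 0.132), and its 6 probe sets had the same sign. Cars2, the mitochondrial cysteinyl-tRNA synthetase, and Cpt1a, which admits fatty acids to mitochondria, had -1.04 ± 0.127 and -0.96 ± 0.176. The 3 probe sets of Cars2 gave differences from -1.04 to -0.13. Irgm1, an interferon-inducible GTPase outside the list above, had -0.98 ± 0.17. Scrn1, Sfmbt1, Asb13, Pik3r3 and Wdr5b completed the 12 largest, between -1.08 and -0.90.

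Proliferation genes had the lowest median of the lists, -0.29, with 0 of 42 passing and 4 that did not overlap, all lower in the first set. That share, 9.52%, compares with 6.12% of all genes and 9.29% of genes with a mean level of at least 6. Subclone 2 carried much of the low median. Its mean over the list was 9.14, against 9.61 to 9.90 in the other subclones of its set and 9.77 to 10.06 in the second set, and the median without it was -0.13. Cdc20, an activator of the anaphase-promoting complex, stood at 9.83, 10.75, 10.85 and 10.68 against 11.52, 11.25, 11.44 and 11.21 (-0.83 ± 0.212, adjusted p = 0.0901).

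Collagens and matrix genes did not separate as a list, and 0 of 51 passed. Col4a1, Col4a2 and Lamb2, genes of the basement membrane, did not overlap, each lower in the first set (-0.54, -0.38 and -0.42). That share, 5.88%, was close to the 6.12% of all genes. Col4a1 and Col4a2 start side by side on chromosome 8, so they are not independent cases. Bgn, the proteoglycan biglycan, was at 5.59 and 4.85 in subclones 18 and 19 and at 12.38 to 12.76 in the other 6, so its set difference of 3.62 ± 1.80 overlapped and did not pass (adjusted p = 0.332). Col4a5 had the same order, with 4.61 and 4.42 in subclones 18 and 19 and 9.43 to 10.45 elsewhere.

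Vim and Krt18, taken as markers of the line, were present in every subclone. Vim stood between 13.67 and 13.83, and Krt18 between 10.82 and 11.97. Krt8, the partner keratin, was at 10.32 to 11.29 in 7 subclones and at 5.70 in subclone 18. Sftpc and Scgb1a1, markers of lung epithelium, lay near the floor, at 4.93 to 5.57 and 4.78 to 5.45. Of 40 measured epithelial genes, 25 were below 5.5 in every subclone. Ptprc, Adgre1, Itgam and Pecam1, which define leukocytes, macrophages, myeloid cells and endothelium, lay between 4.32 and 5.21 in every subclone, near the floor. Cd68 and Fabp4, lysosomal and lipid-binding proteins that also mark macrophages and adipocytes, were above it, at 6.14 to 8.94 and 5.81 to 9.28, and overlapped. Of 17 measured leukocyte markers, 10 were below 5.5 in every subclone; the list's mean level ran from 5.52 to 5.64 in the first set and from 5.44 to 5.67 in the second, and 0 passed. Cd3e was at 4.23 to 4.46, whereas Csf1r and Cd8a, also on that list, were above the floor at 7.02 to 7.29 and 6.63 to 7.13. The sets did not overlap in 11.8% of the list as higher in the first set and in 11.8% as lower. The shares of all genes were 5.32% and 6.12%. Of the 17 endothelial and adipocyte markers, 12 were below 5.5 and 0 passed. The sets did not overlap in 2 of them, Egfl7 and Adipoq, both higher in the first set (11.8%, against 5.32% of all genes). Egfl7 was well above the floor, at 8.23 to 9.14. The Y-linked and ribosomal protein lists had 0 genes that passed and medians of 0.049 and -0.0029.

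Over the whole table the sets were farther apart than the subclones within them, but not by much. The mean root mean square log2 distance was 0.4223 between subclones of different sets and 0.3592 within sets, a ratio of 1.176. No other way of halving the 8 subclones gave a larger ratio (exact permutation test, one-sided p = 0.02857, the smallest possible). Without subclone 2, 3, 6, 28 or 18 the ratio was 1.107 to 1.181 and the p of the same exact permutation test 0.05714. Subclone 24 lay 0.3256, 0.3446, 0.2989 and 0.4182 from subclones 2, 3, 6 and 28, and 0.4477, 0.4159 and 0.3562 from 18, 19 and 23 of its own set. It was thus nearer to 2, 3 and 6 than to any of its own set. Subclone 18 lay farthest from the first set (0.4802 to 0.517). Of the sum of squares among the 8 subclone means, 29.42% lay between the sets. The median SD between arrays of a subclone was 0.113, and between subclone means of a set it was 0.15.

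Chromosomes did not share the differences evenly. Among genes with a mean level of at least 6, the sets did not overlap in 6.16% as higher in the first set and in 9.29% as lower. On chromosome 8 the latter share was 23% (135 of 587 genes) with a median difference of -0.162, and on chromosomes 5 and 11 it was 16.8%. On chromosomes 1 and 16 it was 1.14% and 1.78%. Genes higher in the first set were most frequent on chromosomes 6 (11.7%), 15 (11.3%) and 12 (10.5%). Chromosome 9, where the MMP genes lie, had 7.07% higher and 14.3% lower. No test was made of these shares, since neighbouring genes are not independent.

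**Figure D5:**
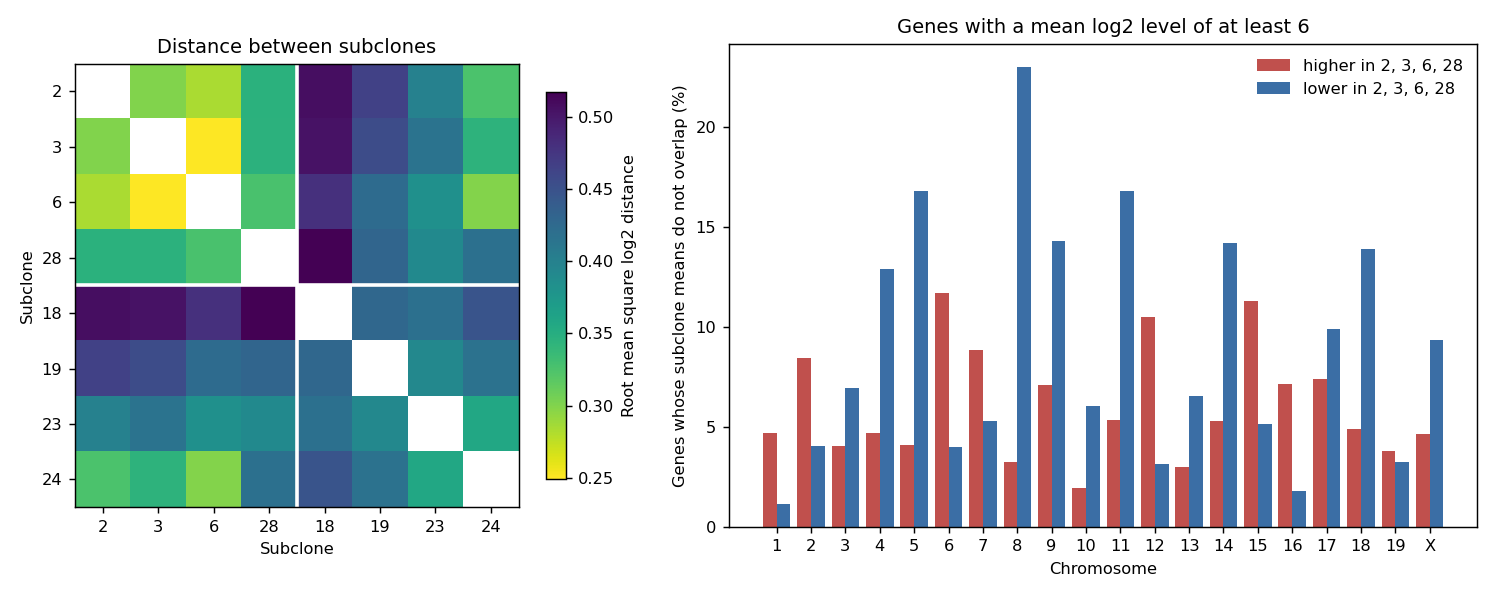
The left panel colours each pair of subclones by the root mean square log2 distance of their means over 18193 genes, with white lines between the sets; the right panel gives by chromosome the percent of genes with a mean log2 level of at least 6 whose subclone means do not overlap, higher (red) or lower (blue) in subclones 2, 3, 6 and 28. Subclone 24 is close to 2, 3 and 6, subclone 18 is far from all of the first set, and chromosome 8 has the tallest blue bar (23%).

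Several genes followed Il11 closely over the 8 subclones. Among the 2328 other genes whose subclone means spanned 1 log2 unit or more, the highest Pearson correlations with Il11 were those of Fam13a (0.988), Ifitm6 (0.985), Itga6 (0.981), Lst1 (0.971), Eml2 (0.965) and Blvrb (0.962). These genes were picked as the highest of many over 8 points that fall into 2 sets, so the values are given as a description. Like Il11, Fam13a was higher in subclones 23 and 24 (7.56 and 7.05) than in 18 and 19 (6.18 and 6.11), and it ran from 8.02 to 8.77 in the first set. Itga6, an integrin subunit that binds laminin, ran from 12.37 to 12.77 in the first set and stood at 11.40, 11.44, 12.09 and 11.98 in the second.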

How the data were processed

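The authors deposited 1 intensity per probe set and array on a linear scale (0.61 to 17068.52), and the sources used here do not give the algorithm and scaling behind it. Per the labels, RNA was extracted with Trizol and columns and labelled with biotin by the manufacturer's protocol. Values were taken as log2(intensity + 16) without further normalization or filter. Control probe sets (64), probe sets with several symbols (932) and unnamed ones (9160) were left out. Symbols were updated through Entrez identifiers and a RefSeq table of GRCm38.p6, and the probe set with the highest mean represented a gene, which left 18193 genes. Arrays were averaged by subclone and limma 3.58.1 (R 4.3.3) was run on the 8 means (lmFit, then eBayes, on 6 residual degrees of freedom), which also gave the 95% intervals. The script was tested on simulated data. The labels call arrays of a subclone biological replicates, and p-values measure the spread between these 8 clones.

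The sets, members and lists were chosen with earlier results of these data known. Named are Il11, Lif and Adm, the 12 largest differences per direction among genes that passed, up to 4 members per list that passed or did not overlap, and the 6 genes most like Il11; further names were picked after their values were seen. Alternatives were pseudocounts of 1 and 64, a filter at a mean of 6, quantile normalization, other choices of probe set, other fits, and leaving out replicates or subclones. The number of subclones limits the precision.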

Additional observations from a re-analysis of the deposited data

Results flagged for a closer look

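Within a set of 4 subclones, a subclone mean was marked where its distance to the nearest other mean took up nearly the whole range of the set (Dixon's criterion for 4 values). Of 172 sets (86 named genes), 10 held such a subclone. Chance alone gives about 1 in 20, which is close to the share seen, so the marks below are a description only. In the second set these were Adm in subclone 24 (9.67), the lowest of its set, Plau in subclone 18 (7.96), also the lowest, Il33 in subclone 23 (9.74), the highest, and Srxn1 in subclone 23 (10.69), the highest. Mcm5, a subunit of the replicative helicase, and Plk2, a p53 target kinase, were highest in subclone 18 (10.9 and 10.45). In the first set, subclone 2 was lowest for Plau (10.6), Snai2 (9.85), an epithelial-mesenchymal transition factor, and Cdc20 (9.83). Ajuba, a LIM protein of the Hippo pathway, was highest in subclone 28 (8.6). Some marks rest on narrow ranges of the set. These were 10.6 to 10.82 for Plau of subclone 2 and 8.39 to 8.6 for Ajuba of subclone 28. They were 9.85 to 10.08 for Snai2 of subclone 2 and only 10.79 to 10.9 for Mcm5 of subclone 18.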

How the results depend on the processing

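The count of genes that passed was 225 (101 higher, 124 lower). It was 1 (1 and 0) with a pseudocount of 1, 557 (232 and 325) with the probe set of largest variance, 725 (280 and 445) with all 34945 probe sets, 2489 (1138 and 1351) with the subclone as a random block, 8889 (4454 and 4435) with only the spread between arrays of a subclone, and 146 (79 and 67) with an intensity trend. Without replicate 1, 2 or 3 of every subclone it was 98 to 178 (62 to 77 higher, 36 to 101 lower). Leaving out 1 subclone gave 0 to 365 (0 to 166 higher, 0 to 199 lower), and the ratio of distances was then 1.107 to 1.303. A pseudocount of 64, the filter and quantile normalization gave 278, 255 and 238. With the probe set of largest variance 222 of the 225 genes kept their sign. Among 86 named genes only Rps3 reversed, to -0.46 with the probe set of largest variance. Of 545 list medians under alternatives, 8 moved by more than the median standard error of their members, 7 of them under the filter. With the replicate number as a block 216 genes passed (100 and 116); same-numbered arrays did not deviate together (mean r = -0.00282, from -0.278 to 0.187 over 77 pairs), so the numbers were not taken as pairs. The cause of these shifts was not tested. Levels near the floor and 4 subclones per set limit what can be called.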

Other observations

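Some genes that passed belong to none of the groups described. Setd2, Kmt2a and Setd1b, which encode methyltransferases of histone H3, and Kat6a, a histone acetyltransferase, were lower in the first set, by differences of -0.47 ± 0.0744, -0.48 ± 0.0774, -0.81 ± 0.126 and -0.48 ± 0.0793. Srrm2, a protein of splicing speckles, had -0.45 ± 0.0748 (limma, adjusted p = 0.0358). These 5 were picked out after their values were seen, and no list of such genes was counted. Slpi, a secreted inhibitor of leukocyte elastase, was higher in the first set at 10.88, 11.04, 10.91 and 11.08 against 9.58, 10.19, 9.06 and 9.13 (1.49 ± 0.226), and Cd40 and Tnfsf9, a receptor and a ligand of the TNF families, by 0.75 ± 0.142 and 0.75 ± 0.102.

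Of growth factors, 0 of 53 passed. The sets did not overlap in 1.89% as higher in the first set and in 5.66% as lower. Neither share exceeded that of all genes (5.32% and 6.12%), so the list did not stand out. Artn, which encodes the neurotrophic ligand artemin, did not overlap and was lower in the first set, at 5.40 to 6.41 against 6.67 to 7.47 (-1.31 ± 0.267, adjusted p = 0.0561), and Vegfd, a lymphatic growth factor, had -1.03 ± 0.32 (0.14). Among stress genes, Trib3, a pseudokinase of the amino acid response, had 1.10 ± 0.224 (0.0561) and Slc7a1, an arginine importer, -0.41 ± 0.0823 (0.0548). Gadd45a, a p53 target, had 1.02 ± 0.231 (0.0703), whereas Ccng1, another, had -0.37 ± 0.0891 (0.0781).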
